A study of Mus musculus with 8 samples.

Results

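The genes described here are *Vcam1* and *Icam1*, which encode adhesion molecules that bind leukocyte integrins, and *Gata2*, *Gata3*, *Gata4* and *Gata6*, which encode GATA transcription factors. They are 6 of the 21938 protein-coding genes on chromosomes 1 to 19, X and Y. Their members in the data are the called ATAC-seq peaks that overlap a window made of the gene body and 20 kb upstream, on the mm10 build. These are 62 of 299328 peaks, which fell into 16 of 69399 regions once overlapping peaks of all libraries were merged. The rule that picks the peaks uses only their position.

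ATAC-seq uses the Tn5 transposase to insert adapters into open chromatin, and it was applied to mouse cutaneous squamous cell carcinoma (SCC) cells. All lines come from K14CreER FAK flox/flox mice of the FVB strain, whose skin tumours were induced with DMBA and TPA and have Ha-Ras as driver gene. K14 drives the inducible Cre in basal keratinocytes, and focal adhesion kinase (FAK) was deleted in cultured SCC cells with 4-hydroxytamoxifen. FAK-/- cells lack FAK, and the other lines carry a retroviral construct that was stably expressed in a clone of these cells under hygromycin selection, so no line holds FAK from its own locus. FAK-WT carries wild-type FAK, FAK-nls carries FAK with a mutated nuclear localization sequence (R177A, R178A, R190A, R191A, R216A and R218A), and FAK-kd carries kinase-deficient FAK (K454R). Each of the 4 lines has 2 libraries. The study calls them biological replicates, and the sources used here do not say whether they were separate cultures of the line, so p-values measure the spread between these libraries.

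VCAM-1 and ICAM-1 are surface proteins of the immunoglobulin superfamily. VCAM-1 binds the integrin α4β1 and ICAM-1 binds integrins of the β2 family, and both are best known on inflamed endothelium, where NF-kB acting downstream of tumour necrosis factor raises their transcription. GATA factors are zinc-finger proteins that bind DNA at the letters GATA. GATA2 acts in blood progenitors and endothelium, GATA3 in T cells and in epidermis and hair follicle, and GATA4 and GATA6 in heart and endoderm. Nuclear FAK has been reported to lower VCAM-1 by promoting the turnover of GATA4, which gives the question asked of these peak lists: whether chromatin at these genes is called as open differently with wild-type FAK, without FAK, without nuclear FAK or without FAK kinase activity.

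The libraries differed in how many peaks were called, between 24383 and 53703 after minor contigs were left out, with both FAK-nls libraries the smallest. The study states read totals for the libraries, which were not used here. Chromatin may be open without reaching the threshold of a call, so presence was read in the full lists and again after each list was shortened to its 24383 strongest peaks, ranked by −log10 p. The labelled cell type was checked by promoters, defined as from 500 bp before to 2000 bp after an annotated transcription start site (TSS). Of 8 keratinocyte and squamous markers, *Itga6* was called in all 8 libraries, *Krt14* in 1 library, and *Krt5*, *Trp63*, *Dsg3*, *Cdh1*, *Epcam* and *Sfn* in none. Of 6 fibroblast markers, *Col1a1*, *Col1a2*, *Pdgfra* and *Pdgfrb* were called in all 8 libraries and *Dcn* and *Lum* in none. No promoter of the 8 endothelial or the 6 leukocyte markers was called in all 8 libraries, and *Pecam1*, *Tek*, *Tie1*, *Esam* and *Emcn* as well as *Ptprc*, *Cd3e* and *Itgam* were called in none. The defining keratinocyte promoters were thus mostly uncalled in cells labelled as SCC.

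Promoters of the 6 genes fell into 3 classes. *Gata2* and *Gata3* had a promoter called in all 8 libraries, *Vcam1* in 6 and *Gata6* in 3 libraries, and *Icam1* and *Gata4* in none. Among all protein-coding genes, 41.9% had a promoter called in every library and 40.6% in none, beside 2 of 6 members in each of these classes. The 16 regions were split unevenly among the genes, with 5 at *Gata2*, 4 at *Gata3*, 2 each at *Vcam1*, *Icam1* and *Gata4*, and 1 at *Gata6*. Of these regions, 3 (18.8%) were called in all 8 libraries, 7 (43.8%) in 2 to 7 libraries and 6 (37.5%) in 1 library, against 25.8%, 45.6% and 28.6% of all 69399 regions. Most calls were weak within their libraries. Ranked by −log10 p, where 0% is the strongest peak, the 62 peaks had a median rank of 61.1%, and 39 of them (62.9%) lay beyond the middle of their list.

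**Figure D1:**
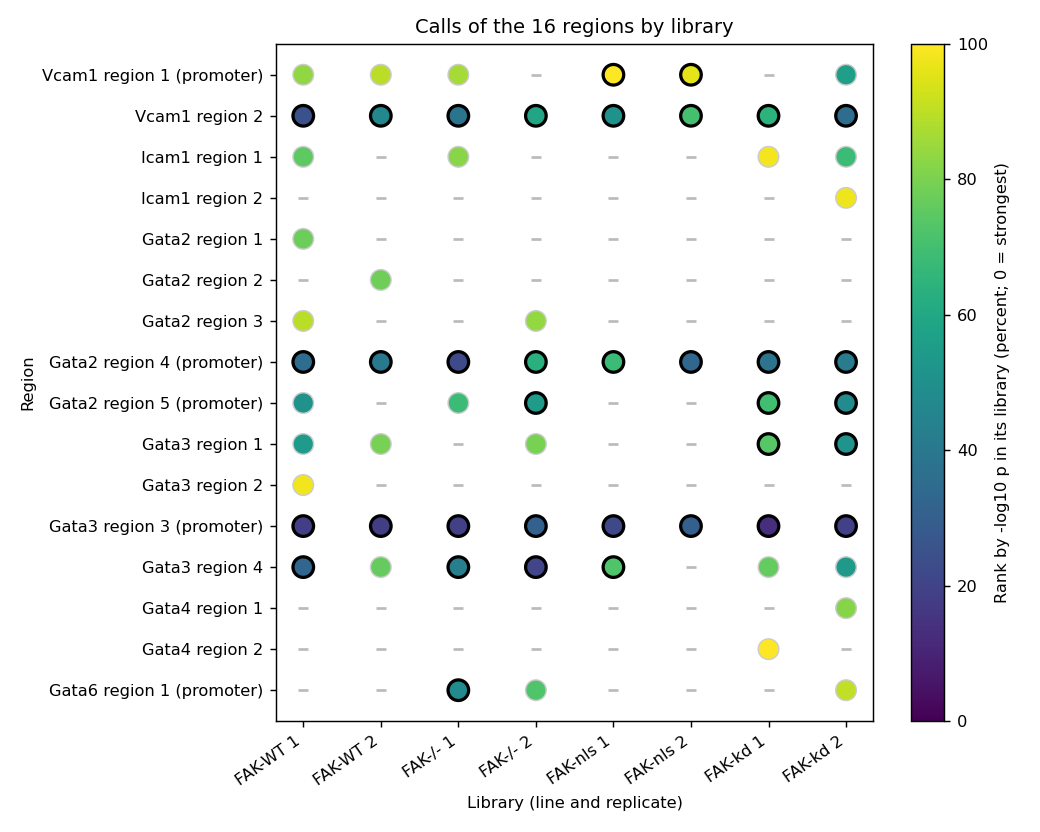
Each circle is a call of a region (rows) in a library (columns), coloured by the rank of its peak by −log10 p as a percent of the list, and a dash is a region that was not called. A black outline marks peaks among the 24383 strongest of the library; only Vcam1 region 2, Gata2 region 4 and Gata3 region 3 have a circle in all 8 columns.

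The 2 longest lists, FAK-WT 1 and FAK-kd 2, held the most member regions, and the FAK-nls lists the fewest. FAK-WT had 11 and 7 of the 16 regions called, FAK-/- had 8 and 8, FAK-nls had 5 and 4, and FAK-kd had 8 and 11. Per 10000 called peaks the libraries held between 1.60 and 2.43 member regions. Among the strongest 24383 peaks, FAK-WT kept 4 and 3 regions, FAK-/- 5 and 5, FAK-nls 5 and 4, and FAK-kd 5 and 5, a range of 3 to 5 over the libraries.

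*Vcam1* lies on the minus strand of chromosome 3 (chr3:116109949-116129688) and had 2 regions. Vcam1 region 2 (chr3:116113550-116114961), 15432 bp into the gene and over a coding exon, was called in every library. Its fold enrichment over local background was 4.67 and 3.97 in FAK-WT, 4.40 and 3.85 in FAK-/-, 4.19 and 3.90 in FAK-nls, and 3.70 and 4.61 in FAK-kd. These values overlapped between all lines. The peak was 1366 and 1297 bp long in FAK-WT and 893 and 1015 bp in FAK-nls, the shortest of the 8, whose libraries also had the shortest peaks overall. It was also kept among the 24383 strongest peaks of all 8 libraries.

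A stretch of 200 bases from the open region inside the *Vcam1* gene is shown because this was the only *Vcam1* region called throughout. It was read from the GRCm38 genome on the plus strand at chr3:116114354-116114553, chosen as the 200 bases with most motif matches in the part that the peaks of all 8 libraries cover. Capitals mark a match to the GATA motif, which was searched on both strands with the letters AGATAA and AGATAG, and with TGATAA or else TGATAG.
Vcam1 region 2: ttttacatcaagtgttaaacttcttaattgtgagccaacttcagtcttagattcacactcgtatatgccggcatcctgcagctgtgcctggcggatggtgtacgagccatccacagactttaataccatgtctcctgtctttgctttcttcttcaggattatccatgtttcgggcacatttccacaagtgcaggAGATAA

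The promoter of *Vcam1* behaved differently. Vcam1 region 1 (chr3:116128961-116130434) is centred 10 bp upstream of the main TSS, holds the first coding exon and untranslated sequence, and overlaps the gene Gm43109. Its fold enrichment was 3.36 and 3.30 in the FAK-WT pair, and further calls were made in FAK-/- 1 with 3.37, in both FAK-nls libraries with 3.06 and 3.41, and in FAK-kd 2 with 4.38. FAK-/- 2 and FAK-kd 1 had no call. Calls were therefore present with and without nuclear FAK, and each line that lacked a call in a library had it in the other. Of these calls, 5 lay late in their lists, at ranks of 83.3% and 89.5% in FAK-WT, 86.7% in FAK-/- 1, and 99.8% and 96.0% in FAK-nls, while that in FAK-kd 2 was at 55.9%. The call in FAK-nls 1 was 200 bp long, and those in the other libraries were between 594 and 1474 bp.

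The equal-number lists kept the promoter of *Vcam1* only in the FAK-nls pair, at ranks 24344 and 23979, since those lists were hardly shortened. In FAK-WT its ranks of 44749 and 34939 lay beyond the limit. The highest −log10 p was in FAK-kd 2, with 6.37, against 4.59 and 4.02 in FAK-WT. The central 500 bp of this region held 2 GATA matches, 2 AP-1 matches (TGACTCA or TGAGTCA) and 1 NF-kB match, whereas those of Vcam1 region 2 held none of the 4 motifs sought.

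*Icam1* lies on the plus strand of chromosome 9 (chr9:21015985-21028817), and its promoter was not called in any of the 8 libraries. The window had 2 regions, both upstream. Icam1 region 1 (chr9:21002573-21004040) is centred 12678 bp upstream of the TSS and covers the starts of *Mrpl4*, which encodes a mitochondrial ribosomal protein. It was called in FAK-WT 1 with a fold enrichment of 3.67, in FAK-/- 1 with 3.23 and in both FAK-kd libraries with 2.91 and 3.98. FAK-WT 2, FAK-/- 2 and the FAK-nls pair had no call, and none of the 4 calls was among the 24383 strongest peaks. Icam1 region 2 (chr9:21010460-21010866), 5322 bp upstream, was called in FAK-kd 2 only, at a fold enrichment of 3.05 and a rank of 97.3%.

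The set of RefSeq promoters used here held entries for *Icam1*, *Gata2* and *Gata3*, and not for *Vcam1*, *Gata4* and *Gata6*. The 250 bases before the TSS of *Icam1* are shown because this promoter stayed uncalled. They are from GRCm38.p6, at chr9:21015690-21015939 on the plus strand. Capitals mark a match to the STAT motif TTCNNNGAA, which 8.30% of the 32851 promoters of 300 bases hold and which is bound by the STAT factors of interferon signalling.
Icam1 promoter: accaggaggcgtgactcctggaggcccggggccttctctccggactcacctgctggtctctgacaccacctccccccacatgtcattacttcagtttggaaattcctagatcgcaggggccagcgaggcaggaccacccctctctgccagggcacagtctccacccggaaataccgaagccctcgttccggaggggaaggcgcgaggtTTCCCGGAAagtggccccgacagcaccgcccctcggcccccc

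*Gata3* lies on the minus strand of chromosome 2 (chr2:9857078-9890034) and held the region with the best median rank by −log10 p among the 16. Gata3 region 3 (chr2:9878407-9879958) is centred 10852 bp into the gene and contains the start of a shorter transcript. That start, chr2:9878600, is also the *Gata3* start of the RefSeq set. The region holds untranslated exon sequence and overlaps Gm13256. Its fold enrichment was 5.05 and 4.66 in FAK-WT, 4.57 and 4.15 in FAK-/-, 5.13 and 5.00 in FAK-nls, and 5.34 and 4.82 in FAK-kd. Both FAK-/- values lay below all others, and these libraries also had the lowest median fold enrichment over all their peaks, 4.13 and 4.10 against 4.16 to 4.45 in the other libraries. This order was lost after the quantile normalisation used further below. There FAK-kd 2 was lowest, at 2.12 on the log2 scale, against 2.19 and 2.13 in FAK-/-. Its rank was between 13.1% and 30.3%, and it was called over 566 and 939 bp in FAK-nls against 1535 and 1372 bp in FAK-WT.

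A stretch of 200 bases from this region is shown, again those with most motif matches in the part that the peaks of all 8 libraries cover. It was read from the plus strand of GRCm38 at chr2:9879560-9879759, upstream of the start and outside the annotated exons of *Gata3*. Overlap with exons of Gm13256 was not examined. Capitals mark an AP-1 match, which lies outside the central 500 bp, where none of the 4 motifs was found.
Gata3 region 3: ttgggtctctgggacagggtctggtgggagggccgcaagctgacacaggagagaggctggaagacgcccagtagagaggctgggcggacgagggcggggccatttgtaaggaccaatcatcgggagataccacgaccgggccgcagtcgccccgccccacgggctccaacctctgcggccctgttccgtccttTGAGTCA

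Another *Gata3* region, 14197 bp upstream of the gene, was called in FAK-WT but not in FAK-nls. Gata3 region 1 (chr2:9903790-9904672) had a fold enrichment of 4.61 and 3.63 in FAK-WT, 3.60 in FAK-/- 2, and 3.84 and 4.83 in FAK-kd, and it was not called in FAK-/- 1, FAK-nls 1 or FAK-nls 2. The ranks in FAK-WT were 29191 and 31001, which exceed the full length of both FAK-nls lists, and the region dropped out of the FAK-WT lists of the 24383 strongest peaks while both FAK-kd libraries kept it. It is shown here by the 200 bases with most motif matches, from the plus strand of GRCm38 at chr2:9903989-9904188. The peaks of 3 libraries, both of FAK-WT and FAK-kd 2, cover this stretch whole, and those of FAK-/- 2 and FAK-kd 1 cover part of it. In capitals are an AP-1 match at the start and a GATA match.
Gata3 region 1: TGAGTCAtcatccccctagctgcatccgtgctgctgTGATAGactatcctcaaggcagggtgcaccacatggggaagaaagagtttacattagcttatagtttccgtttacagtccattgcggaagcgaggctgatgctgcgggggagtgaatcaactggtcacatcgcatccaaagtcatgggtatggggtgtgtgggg

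The intronic Gata3 region 4 (chr2:9860725-9861384), 28980 bp into the gene, was called in 7 libraries, all but FAK-nls 2. Its fold enrichment was 5.97 and 3.79 in FAK-WT, 4.95 and 5.99 in FAK-/-, 4.00 in FAK-nls 1, and 3.82 and 4.69 in FAK-kd. The FAK-WT pair thus spanned nearly the whole range of the other calls. Gata3 region 2 (chr2:9898517-9898916), 8682 bp upstream, was called in FAK-WT 1 only, at a rank of 97.8%.

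*Gata2*, on the plus strand of chromosome 6 (chr6:88193891-88207032), had its downstream promoter called in every library. Gata2 region 4 (chr6:88198284-88199719) contains the starts of 2 shorter transcripts with coding and untranslated sequence. Its fold enrichment was 4.60 and 3.90 in FAK-WT, 4.30 and 3.25 in FAK-/-, 3.52 and 4.94 in FAK-nls, and 3.79 and 4.20 in FAK-kd. The 2 FAK-nls libraries lay further apart than any other pair and enclosed the FAK-WT values. The upstream start, at the beginning of the gene, had no called region.

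Gata2 region 5 (chr6:88203356-88204214) lies in an intron, is centred 660 bp upstream of an internal transcript start and only partly overlaps its promoter window. It was called in 5 libraries, and the peaks of FAK-WT 1 and FAK-kd 1 did not reach that window. The fold enrichment was 4.09 in FAK-WT 1, 3.14 and 3.51 in FAK-/-, and 3.15 and 4.00 in FAK-kd, with no call in FAK-WT 2 or in FAK-nls. The peak was 303 bp long in FAK-WT 1, 792 and 802 bp in FAK-/-, and 201 and 800 bp in FAK-kd. The remaining 3 *Gata2* regions lie upstream and were seldom called. Gata2 region 1 (19208 bp upstream) was called in FAK-WT 1 only, Gata2 region 2 (6020 bp upstream) in FAK-WT 2 only, and Gata2 region 3 (4122 bp upstream, in the promoter of Gm38708) in FAK-WT 1 and FAK-/- 2. Their fold enrichment was between 3.18 and 3.89, and none was among the 24383 strongest peaks of a library.

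*Gata4*, on the minus strand of chromosome 14 (chr14:63198922-63271692), had neither a called promoter nor a region called in more than 1 library. Gata4 region 1 (chr14:63207248-63207502), in an intron 64317 bp into the gene, was called in FAK-kd 2 over 255 bp with a fold enrichment of 3.68. Gata4 region 2 (chr14:63201135-63201709), over a coding exon 70270 bp into the gene and nearest to the start of *Neil2*, was called in FAK-kd 1 with 2.95 and a rank of 99.8%. No *Gata4* region was called in FAK-WT, FAK-/- or FAK-nls.

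*Gata6*, on the plus strand of chromosome 18 (chr18:11052064-11085635), was called at its promoter without FAK and not with wild-type FAK. Gata6 region 1 (chr18:11052381-11053338) contains 3 *Gata6* starts and overlaps 1010001N08Rik. It was called in FAK-/- 1 over 880 bp with a fold enrichment of 4.35, in FAK-/- 2 over 958 bp with 3.60, and in FAK-kd 2 over 200 bp with 3.28. FAK-WT, FAK-nls and FAK-kd 1 had no call. The ranks were 48.0% and 72.6% in FAK-/- and 90.6% in FAK-kd 2, and only the call in FAK-/- 1 was among the 24383 strongest peaks. The central 500 bp held 5 GATA matches, the most among the 16 regions, and 1 NF-kB match.

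**Figure D2:**
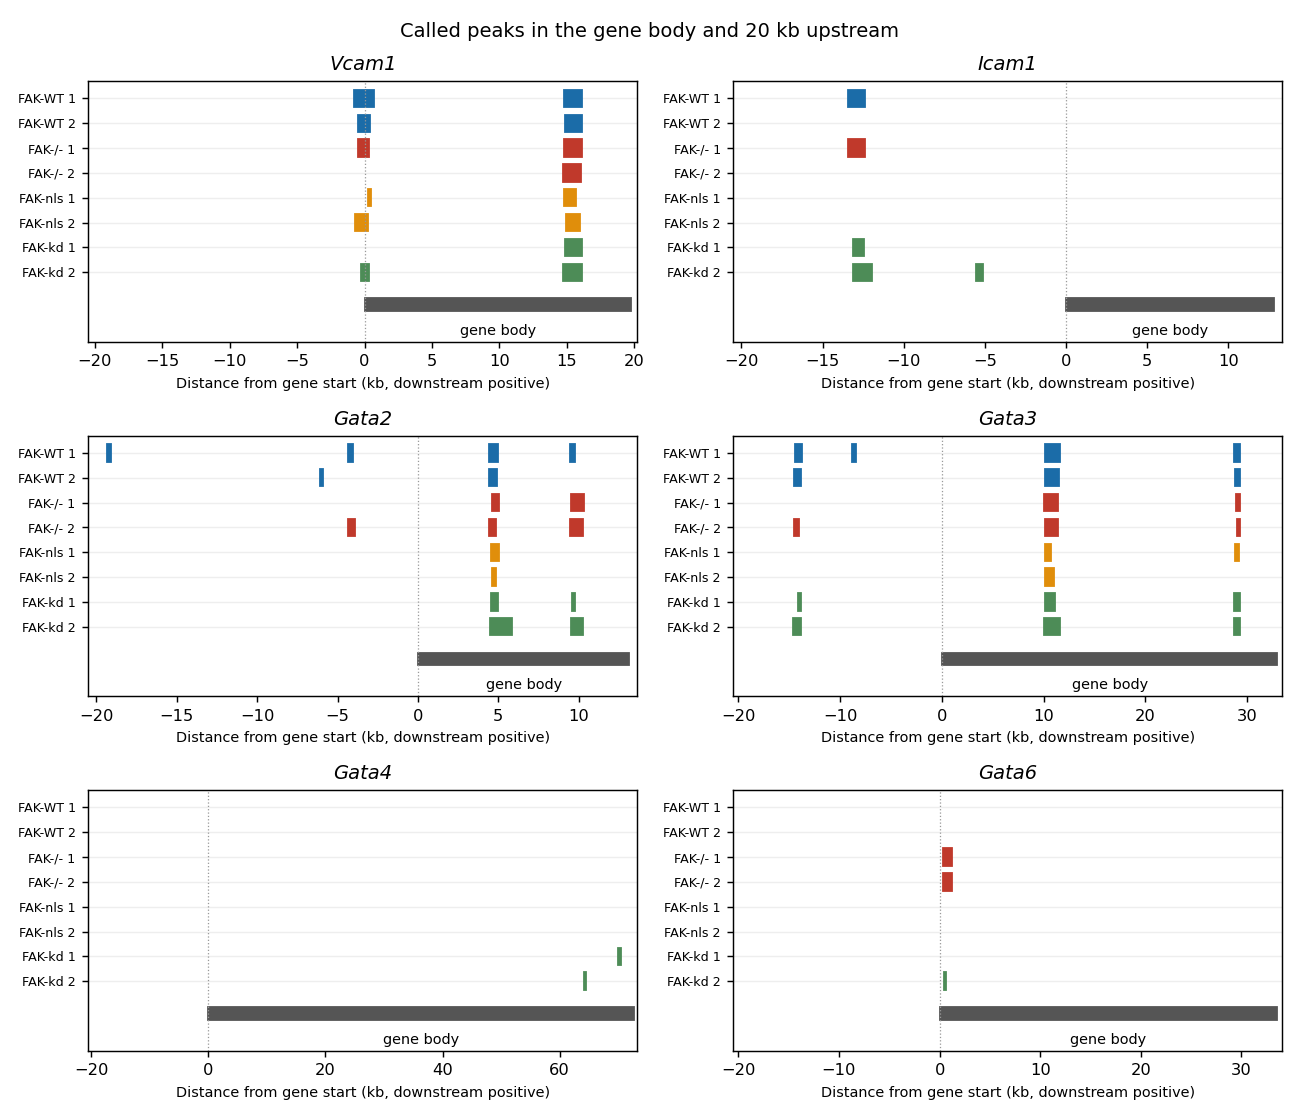
Called peaks (coloured bars, 1 row for each library) are drawn to scale by distance in kb from the start of each gene, with the gene body as a grey bar. *Gata6* has calls in both FAK-/- libraries and in FAK-kd 2, all at its start, while *Gata4* has calls only deep in the gene in the FAK-kd libraries.

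Regions that separate FAK-WT from another line were counted next. A region was taken as WT-only if the FAK-WT pair had it and the pair of the other line did not, and as reverse in the opposite case. With 2 libraries against 2, the smallest exact permutation p is 0.333, so single regions were not tested. Against FAK-/-, 0 of the 13 member regions called in either line were WT-only and 1 was reverse, Gata6 region 1, where 5.41% and 1.31% of all such regions were WT-only and reverse. Against FAK-nls, 1 of 12 was WT-only, Gata3 region 1, and 0 were reverse, where the background was 18.4% and 0.297%. Against FAK-kd, 0 of 16 were WT-only and 0 reverse, where the background was 4.76% and 0.912%. Each count is 1 region at most, so nothing about the members as a group is read from it.

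At equal peak number neither Gata6 region 1 nor Gata3 region 1 separated the same lines. No member region was WT-only against any line, where the background was 4.12% against FAK-/-, 5.66% when set against FAK-nls and 3.70% with FAK-kd. The reverse set against FAK-/- was empty (background 3.95%), that against FAK-nls held 1 of 5 regions, the *Vcam1* promoter (4.93%), and that against FAK-kd held 2 of 6, Gata2 region 5 and Gata3 region 1 (3.15%). Gata3 region 1 was thus WT-only against FAK-nls in the full lists and reverse against FAK-kd in the shortened ones. Gata6 region 1 was called in FAK-/-, with 43136 and 35236 peaks, and not in FAK-WT, with 53703 and 39036. With each list cut to 24383 peaks, FAK-/- 1 kept that call and FAK-/- 2 did not. The part of the number of peaks per library in any of these calls was not tested. No member region was called in both libraries of 1 line and in none of the other 6 libraries.

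Fold enrichment was compared in the 17917 regions called in all 8 libraries, using limma on quantile-normalised log2 values with Benjamini-Hochberg adjustment over all of them. Over all these regions, 1 (0.00558%) passed an adjusted p of 0.05 against FAK-/-, 0 (0%) against FAK-nls and 2 (0.0112%) against FAK-kd. For FAK-nls, 2754 regions had an unadjusted p under 0.05 with limma, and the lowest adjusted p was 0.073. None of the 3 member regions passed. Vcam1 region 2 differed by −0.05 ± 0.14 (SE) on the log2 scale between FAK-WT and FAK-/- (limma, adjusted p = 0.992), by −0.05 ± 0.14 against FAK-nls (0.897) and by 0.03 ± 0.14 against FAK-kd (0.999). The 95% intervals ran from −0.34 to 0.24, from −0.34 to 0.24 and from −0.26 to 0.32, and so reach no further than 0.34 in either direction.

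The other regions called throughout gave similar intervals. The difference of Gata2 region 4 was 0.07 ± 0.17 (SE) against FAK-/-, with an interval from −0.29 to 0.42, −0.11 ± 0.17 against FAK-nls (−0.46 to 0.25) and 0.05 ± 0.17 against FAK-kd (−0.30 to 0.41). The difference of Gata3 region 3 was 0.04 ± 0.15 against FAK-/- (−0.28 to 0.37), −0.25 ± 0.15 against FAK-nls (−0.58 to 0.07) and −0.10 ± 0.15 against FAK-kd (−0.42 to 0.23). The lowest adjusted p of these was 0.456 by limma, for Gata3 region 3 against FAK-nls, where both normalised FAK-nls values lay above both FAK-WT values. Before normalisation the values overlapped, with a fold enrichment of 5.13 and 5.00 in FAK-nls and 5.05 and 4.66 in FAK-WT.

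**Figure D3:**
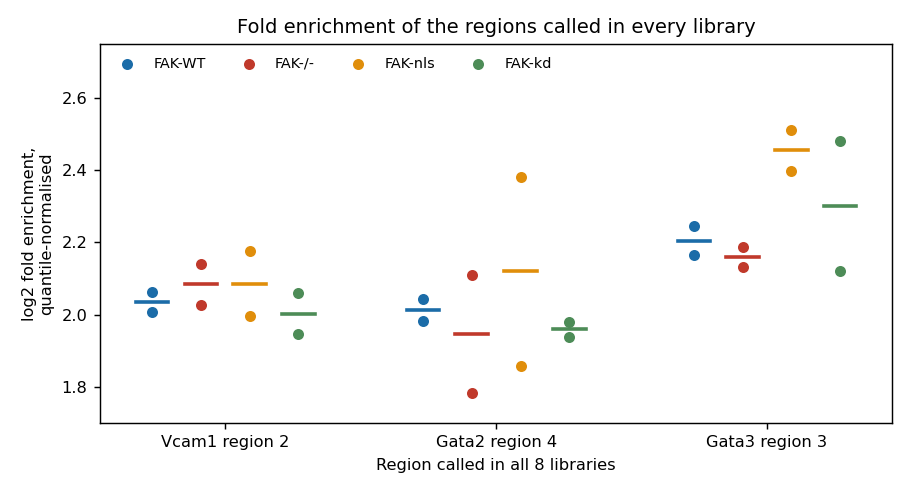
Points are the quantile-normalised log2 fold enrichment of the 2 libraries of each line in the 3 member regions called in all 8 libraries, and bars are line means; the axis does not start at 0. The values for Gata3 region 3 were 2.16 and 2.25 in FAK-WT and 2.51 and 2.40 in FAK-nls.

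The share of the called sequence that fell in each window was taken in called bp per Mb called in the library. Differences in this share between FAK-WT and the other 6 libraries changed at equal peak number. They went from 2.32 to −19.4 at *Vcam1* and from 14.9 to 2.93 at *Gata3*, and the cause was not tested. At *Vcam1* the share was 84.4 and 92.8 in FAK-WT, 84.7 and 64.7 in FAK-/-, 82.8 and 150 in FAK-nls, and 63.4 and 72.1 in FAK-kd. The value of FAK-nls 2 was the highest, and both FAK-kd values lay below both FAK-WT and both FAK-nls values. At *Gata3* it was 95.6 and 102 in FAK-WT, 65.4 and 96.3 in FAK-/-, 74.1 and 70.9 in FAK-nls, and 94.9 and 103 in FAK-kd. FAK-WT and FAK-kd had means of 98.9 ± 4.65 and 98.8 ± 5.44 (SD, n = 2), and both FAK-nls values, at a mean of 72.5 ± 2.23, lay below both FAK-WT values. At *Gata2* the shares were 43.3 and 29.3 in FAK-WT, 47.9 and 80.5 in FAK-/-, 39.0 and 21.2 in FAK-nls, and 31.7 and 76.6 in FAK-kd, with both FAK-/- values above both FAK-WT values.

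The genes without a constant region had shares of 0 in several libraries. *Icam1* had 31.1 in FAK-WT 1, 39.1 in FAK-/- 1, and 36.2 and 56.5 in FAK-kd. *Gata4* had 29.7 and 9.21 in FAK-kd. *Gata6* had 34.4 and 46.0 in FAK-/- and 7.23 in FAK-kd 2. All other libraries were at 0 for these genes. The FAK-WT pair was set against the other 6 libraries with a two-sided exact permutation test over the 28 choices of 2 libraries, whose smallest p is 0.0357. The p was 0.964 for *Vcam1*, 0.714 for *Icam1*, 0.607 for *Gata2*, 0.286 for *Gata3*, 0.786 for *Gata4* and 0.607 for *Gata6*, and the FAK-WT values overlapped with the others for each gene. Of the 16987 gene windows with any call, 3.46% had both FAK-WT values above the other 6 and 5.37% below. After adjustment over these windows, the lowest permutation p of any gene was 0.798, with 676 windows at an unadjusted p under 0.05. A window at the smallest p could pass only if most windows shared it, so not passing does not show an equal share.

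**Figure D4:**
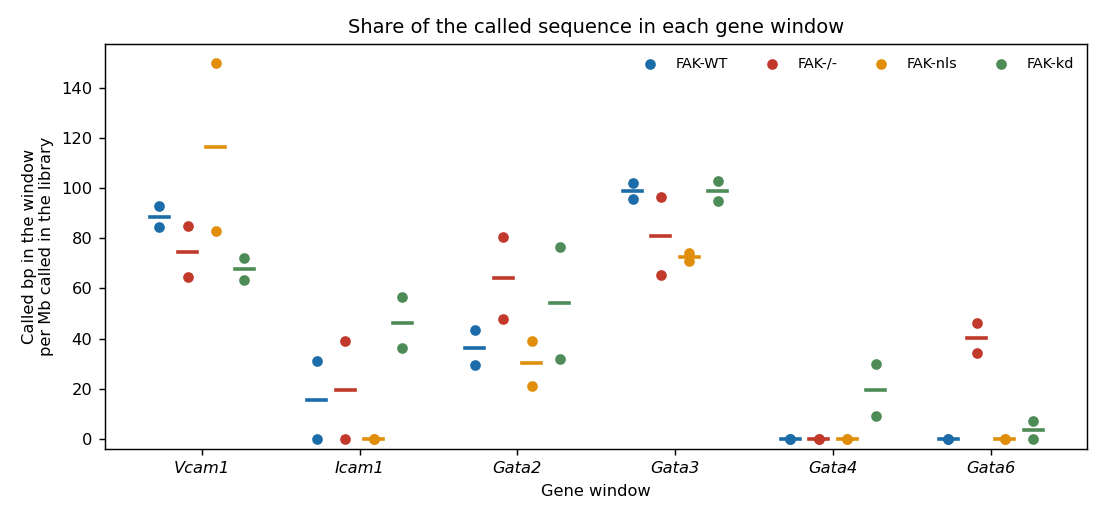
Points are the called bp in each gene window per Mb called in the library, for the 2 libraries of each line, and bars are line means. *Gata6* stands at 34.4 and 46.0 in FAK-/- and at 0 in FAK-WT, whereas for *Vcam1* the FAK-WT values of 84.4 and 92.8 lie within the range of the other libraries.

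Motif matches were counted in the central 500 bp of the 16 regions and of all regions. A GATA match was present in 7 regions (43.8%, against 48.3% of all 69399 regions) and an AP-1 match in 7 (43.8%, against 35.3%). STAT and NF-kB matches were present in 3 regions each (18.8%, against 14.5% and 10.6%). Of RefSeq promoters, 29.8% held a GATA match, 5.20% an AP-1 match and 8.46% an NF-kB match. *Vcam1* and *Gata6* were the genes with both a GATA and an NF-kB match in their promoter region, but a match is a string of letters and not a bound site.

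Genes that act with the 6 members were read by promoter, to be set against the 41.9% of all protein-coding promoters that were called in all 8 libraries. Among 8 other GATA family genes and cofactors, 5 promoters were called in all 8 libraries, namely *Gatad1*, *Gatad2a*, *Gatad2b*, *Trps1* and *Zfpm1*. That of *Zfpm2*, a cofactor of GATA4, was called in 7 libraries, all but FAK-nls 2, and those of *Gata1* and *Gata5* in none. *Zfpm2* also had a region (chr15:40824343-40824711) with calls in the FAK-WT pair and no other library, with a rank of 10969 or better in both. Calls in the FAK-WT pair alone were made in 1.99% of all regions. The 42 regions of this list held 2 WT-only regions against FAK-/-, 7 against FAK-nls and 1 against FAK-kd, and no reverse region, where 5.41%, 18.4% and 4.76% of the regions called in either line were WT-only.

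Of 14 further adhesion genes and receptors, 5 promoters were called in all 8 libraries, including those of *Itgb1*, the β subunit of the VCAM-1 receptor, and *Itgb2*, the β subunit of the ICAM-1 receptors. The promoters of *Icam4* and *Icam5*, which lie next to *Icam1*, were also called in all 8 libraries. Neither of the 2 regions in the *Icam4* window was itself called in all 8, and whether these promoters share a region was not examined. That of E-selectin, *Sele*, was called in FAK-WT 1 and FAK-nls 2, and that of *Itgal* in FAK-/- 1. The other 7, *Itga4* among them, were called in none. *Selp* and *Pecam1* each had a region called in the FAK-WT pair alone, as 1.99% of all regions were. The weaker rank of the pair was 35297 for *Selp* and 52267 for *Pecam1*, both beyond the 24383 strongest peaks. The 44 regions of this list held 2 WT-only regions against FAK-/-, 6 against FAK-nls and 2 against FAK-kd, and no reverse region, beside the same background of 5.41%, 18.4% and 4.76%, whose denominator is the regions called in either line rather than all those of the windows. Among 13 genes of NF-kB and inflammatory signalling, 9 promoters were called in all 8 libraries. The promoter of *Rela*, the transactivating NF-kB subunit, was called in 6 libraries and in neither of FAK-nls, a pattern that 4.12% of all regions showed. *Tnfrsf1a*, the receptor of tumour necrosis factor, was called in 6 libraries, all but FAK-/- 2 and FAK-nls 1, and *Tnf* in FAK-WT 1 and FAK-kd 1. *Il1b* was called in none. The 47 regions of this list held 6 WT-only regions against FAK-nls, 1 against FAK-kd and none against FAK-/-, and 1 reverse region, against FAK-kd, where the background of reverse regions was 0.912%, and 18.4%, 4.76% and 5.41% of WT-only regions in the same order.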

How the data were processed

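ATAC-seq libraries of 4 SCC lines (2 each) were grouped by the sample labels. The authors aligned reads to mm10 with the bcbio pipeline and called broad peaks in each library separately with MACS2, for which their processing notes give version 2.1.1. The methods state a q threshold of 0.05, and between 0.784% and 3.83% of each deposited list exceeds it. The deposited pileup is coverage signal averaged over the peak, and it was not compared between libraries. The deposited −log10 p-values and −log10 q-values test that signal against local background within a library, and −log10 p was used for ranks. The deposited fold enrichment is the ratio of pileup to that background. The lists hold no read counts per peak, and the read totals that the study states were not used, so no intervals for counting error are given.

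Only chromosomes 1 to 19, X and Y were used. Peaks overlapping by at least 1 bp were merged over all libraries, and a region was called where any peak overlapped it. Identical peaks made up at most 0.0361% of the smaller list in any pair of libraries. GENCODE M21 gave genes and TSSs. Fold enrichment (highest peak of a region) was fitted with limma 3.58.1 in R 4.3.3 with a mean for each line, a trend in the prior variance and Benjamini-Hochberg adjustment. Since the peak lists hold no read counts, no count test was run. Window shares were tested by exact permutation. Motifs were exact matches on both strands in the central 500 bp, overlaps counted. The scripts were tested on simulated data.

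The 6 genes, the gene lists and the tests were chosen with earlier results of these data known. The regions described are the promoters, the regions called in every library, those separating FAK-WT from another line and, added after their values were seen, the remaining regions of the windows. Alternatives were equal peak numbers, a minimum −log10 q of 3, windows of 10 kb and 50 kb upstream, 50% coverage of a region, other scalings for limma, a replicate block and leaving out each library. The promoter width and leaving out each line were added after seeing the data.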

Additional observations from a re-analysis of the deposited data

How the results depend on the processing

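No member region that entered limma passed an adjusted p of 0.05 under any setting with both libraries of each line. Only regions called in every library enter, so regions whose calls differ between lines were not tested. Those entering were 3 of 16 in the main setting, and Gata3 region 3 alone at a minimum −log10 q of 3. No member window passed in the permutation test under any setting with all 8 libraries, but the test could hardly be passed. Its smallest p of 0.0357 survives the adjustment only if most windows reach it. In the main setting, 676 of 16987 windows had an unadjusted p under 0.05 by permutation. Leaving out a library leaves fewer than 28 choices, so stability was not read from this test. In the main setting the lowest adjusted p of any gene in that test was 0.798. Over the settings, the lowest for a member window was 0.433, for *Vcam1* in unscaled bp. The number of members with a promoter called in every library stayed at 2 with 1000 bp to each side of a TSS, at equal peak number and without each line. Which regions separate the lines depended on the lists. With the 24383 strongest peaks, the reverse count fell to 0 against FAK-/- and rose to 1 against FAK-nls and 2 against FAK-kd, and the WT-only count against FAK-nls fell to 0. A minimum −log10 q of 3, which left 9 of 16 regions, gave 0 for reverse against FAK-/- and 0 for WT-only against FAK-nls. Of the windows, 10 kb upstream left 13 regions and gave 0 for WT-only against FAK-nls. When 50% of a region had to be covered, WT-only was 1 against FAK-/- and 1 against FAK-kd, and reverse was 2 against FAK-/-. Leaving out each library in turn gave, against FAK-/-, WT-only counts of 1 to 2 (2 without FAK-WT 2) and reverse counts of 1 to 2 (2 without FAK-WT 1). Against FAK-nls, WT-only ranged from 1 to 6 (6 without FAK-WT 2). Against FAK-kd, WT-only ranged from 0 to 3 (3 without FAK-WT 2) and reverse from 0 to 3 (3 without FAK-kd 1).

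Over all regions, limma called 5 against FAK-/- with median centring and 5 with normal scores of the rank, 87 against FAK-nls with normal scores, and 0 against FAK-/- and 0 against FAK-kd with the minimum −log10 q. Without single libraries it called 0 to 1 against FAK-/-, 0 to 3 against FAK-nls (3 without FAK-nls 2) and 0 to 5 against FAK-kd (5 without FAK-nls 1). With normal scores the sign turned for Vcam1 region 2 against FAK-/- (0.23) and FAK-nls (0.05) and for Gata2 region 4 against FAK-/- (−0.15) and FAK-kd (−0.12). Without single libraries, Vcam1 region 2 ranged from −0.11 to 0.01, −0.15 to 0.03 and −0.03 to 0.09 against FAK-/-, FAK-nls and FAK-kd. Gata2 region 4 ranged from −0.10 to 0.23 against FAK-/- and from −0.39 to 0.15 against FAK-nls, and Gata3 region 3 from −0.27 to 0.08 against FAK-kd.

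The difference in window share (FAK-WT minus the other 6 libraries) of *Vcam1*, 2.32 bp per Mb, was −19.4 at equal peak number, that of *Icam1*, −6.40, was 16.3 with 50 kb upstream, and that of *Gata2*, −13.2, was 9.50 in unscaled bp. Without single libraries, *Vcam1* ranged from −2.26 to 15.1 (15.1 without FAK-nls 2), *Icam1* from −22.0 to 9.16 (without FAK-WT 1 and FAK-WT 2) and *Gata2* from −20.2 to −6.20 (without FAK-WT 1 and FAK-WT 2). The difference of *Gata3*, 14.9, was 2.93 at equal peak number and 2.17 with 10 kb upstream. At equal peak number it was −25.0 for *Gata2* and −8.86 for *Gata6* (main value −14.6), and *Gata4* had no call left. Without single libraries *Gata4*, at −6.49, went to −1.84 without FAK-kd 1, and *Gata6* to −8.32 without FAK-/- 2. The cause of these changes was not tested.

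The replicate numbers are not said to pair libraries, and the differences between replicates correlated between −0.202 and 0.0555 for the pairs of lines. A fit with a replicate block called 1, 0 and 2 regions against FAK-/-, FAK-nls and FAK-kd, as without the block. The depth behind the lists was not used, and its part in which weak regions are called was not tested.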

Other observations

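Between 20 and 50 kb upstream of the 6 genes lay 8 more regions, described here after their values were seen. The most widely called were at *Vcam1* and *Icam1*. A region 36.9 kb upstream of *Vcam1* (chr3:116166341-116166933) was called in 7 libraries, all but FAK-nls 1, with a fold enrichment between 3.64 and 5.20. Those 43.5 kb and 39.6 kb upstream of *Icam1* (chr9:20971914-20973044 and chr9:20975805-20977016) were called in 7 and 6 libraries, the first in all but FAK-nls 2 and the other in all but FAK-WT 2 and FAK-nls 2. A further region 22.9 kb upstream of *Icam1* was called in FAK-WT 2 only.

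The GATA factor genes had fewer calls there. *Gata3* had a region 49.4 kb upstream called in FAK-WT 1 and FAK-kd 2, and *Gata6* had a region 35.9 kb upstream called in FAK-WT 1 and FAK-/- 1. *Gata4* had a region 40.5 kb upstream called in FAK-WT 2 and FAK-/- 2 and another 37.6 kb upstream called in FAK-/- 2 only. *Gata2* had none. No region of these 8 separated the FAK-WT pair from another line in the full lists.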
